A study of Mus musculus with 12 samples.

Results

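Interferon-stimulated genes are genes whose transcription rises when a cell receives an interferon signal. The 46 genes described here were a list of such genes, matched by GENCODE symbol to the 55421 genes of the count table and kept where at least 10 reads were counted in at least 3 libraries. All 46 met that rule, and all 46 were among the 18842 genes that passed the low-count filter of the test. Of these, Ifi44 reached 10 counts in 4 libraries, Ifit3b in 7, Iigp1 in 8 and Oasl1 in 9, and the other 42 did so in all 12.

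The samples were microglia, the resident macrophages of the brain, sorted by fluorescence from dissociated mouse brains and cultured through 6 h of oxygen-glucose deprivation (OGD), a model of ischaemia. Control mice carried the reporter allele Cx3cr1EGFP, which marks microglia and other mononuclear phagocytes and which every group shared. The knockout mice were Slc2a5-/-::Cx3cr1EGFP and lacked the fructose transporter GLUT5 throughout the body as far as the labels say, since no Cre driver is named. The comparison addressed how microglia without Slc2a5 respond to this insult. The 4 groups of 3 libraries were control cells taken straight after OGD (WT-OGD), knockout cells taken then (KO-OGD), control cells after a further 24 h of recovery (WT-recovery) and knockout cells after that recovery (KO-recovery). All mice were labelled male and given as postnatal day 35 to 40, while the extraction protocol named a wider span of ages. The treatment field of WT-recovery replicate 1 gave no recovery, whereas its title and library name did, and it was grouped by its title. No cells without OGD were analysed here. The labels do not say that replicates were separate animals or cultures, so the spread behind every p-value is that of these samples and may be technical.

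Type I interferons bind the receptor IFNAR, whose kinases JAK1 and TYK2 phosphorylate STAT2. With IRF9 it forms part of a complex that binds the interferon-stimulated response element (ISRE) of target promoters. The products include sensors of foreign RNA and DNA, proteins that block viral replication, and regulators such as IRF7, which drives further interferon transcription. Microglia with raised interferon-stimulated genes are known from infected, ageing and ischaemic brain.

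RefSeq promoters (GRCm38.p6), reaching from 250 bases before to 50 bases after each transcription start, were matched for 35 of the 46 genes. The ISRE core GAAANNGAAA, read on either strand as GAAANNGAAA or TTTCNNTTTC and counted also where matches overlap, was present in 20 of the 35, or 57.1%. It was present in 1079 of all 27025 genes with a promoter, or 3.99%. Followed by CT, the core was present in 12 of the 35 (34.3%) and in 0.303% of all genes. The gamma-activated site TTCNNNGAA, an element of the response to interferon gamma, was present in 9 of the 35 (25.7%) and in 9.55% of all genes. The windows of 6 genes are shown because they run from genes that were higher in knockout cells after recovery (Oas1a, Slfn8, Stat2) to genes that were not called there (Isg15, Ifit1, Ifit3). Capitals mark the core matches, merged where they overlap.
Oas1a, chr5:120907510-120907565, minus strand: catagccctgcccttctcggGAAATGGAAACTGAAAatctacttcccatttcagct
Slfn8, chr11:83020829-83020878, minus strand: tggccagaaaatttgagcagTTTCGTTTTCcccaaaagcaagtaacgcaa
Stat2, chr10:128270256-128270305, plus strand: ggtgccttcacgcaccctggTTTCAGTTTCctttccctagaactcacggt
Isg15, chr4:156200855-156200916, minus strand: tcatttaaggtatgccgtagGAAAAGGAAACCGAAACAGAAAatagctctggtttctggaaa
Ifit1, chr19:34640765-34640833, plus strand: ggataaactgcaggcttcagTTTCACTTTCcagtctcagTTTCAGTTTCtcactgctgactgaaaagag
Ifit3, chr19:34583353-34583436, plus strand: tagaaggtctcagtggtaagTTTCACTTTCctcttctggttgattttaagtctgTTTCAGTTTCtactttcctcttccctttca
The Ifit3b window at chr19:34607749-34607832 is letter for letter that of Ifit3. Irf7 and Oasl1, among the genes with the widest genotype difference, had no core match in these windows.

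**Figure D1:**
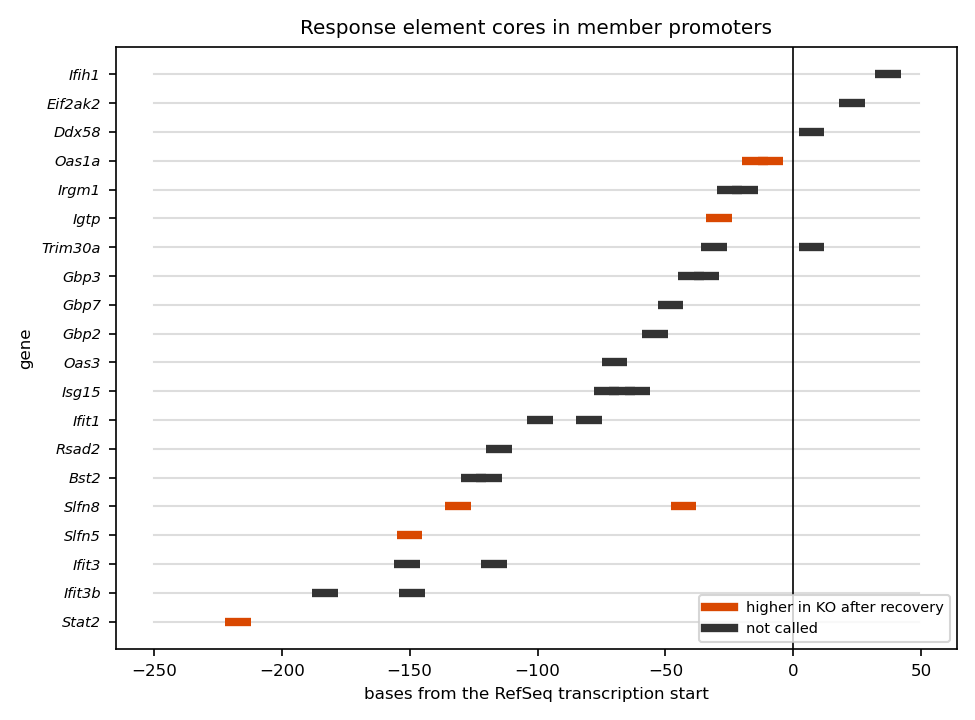
Position of each ISRE core match (bars) in the promoters of the 20 genes that hold one, in bases from the RefSeq transcription start (vertical line). Orange bars belong to the 5 genes called higher in knockout cells after recovery and black bars to the 15 not called. Matches lie from 222 bases before the start (Stat2) to 32 bases after it (Ifih1), and those of called and not called genes are interspersed.

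The libraries held 9885259 to 45347118 counts, and the recovery libraries, at 9885259 to 19915479, were the shallower ones. Mitochondrial transcripts made up 4.20% to 5.75% of counts after OGD, 18.4% in WT-recovery replicate 1, and 4.72% to 10.5% in the other recovery libraries. Slc2a5 itself lay at 1.10 to 1.21 CPM (counts scaled to one library size) in WT-OGD and 0.131 to 0.465 CPM in KO-OGD, and at 0 to 0.122 CPM in all recovery libraries, where it could not check the genotype. The microglial markers Csf1r, C1qa and Trem2 were abundant in every library, but the defining markers Tmem119 (1 to 41 counts) and Siglech (0 to 3 counts) were nearly absent. Although all mice were labelled male, Xist was at 151 to 159 CPM in WT-OGD, 231 to 244 in KO-OGD, 0 to 0.183 in WT-recovery and 312 to 354 in KO-recovery, and Ddx3y, from the Y chromosome, was present in all. Ddx3y was at 37.9 to 46.2 CPM in WT-OGD, 21.5 to 29.2 in KO-OGD, 44.8 to 49.7 in WT-recovery and 14.7 to 21.5 in KO-recovery. Both transcripts differed between the genotypes at each time point without overlap, and Xist differed between the time points in each genotype. Genotype, recovery and their interaction therefore cannot be told apart from a difference in the share of cells of female sex. Summed muscle and cartilage transcripts reached 339 and 307 CPM in KO-recovery replicates 1 and 3, against 10.5 to 81.1 CPM in the other libraries. In bulk RNA, a change in the number of responding cells and a change in RNA per cell cannot be told apart.

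Most interferon-stimulated genes were higher after recovery than straight after OGD in both genotypes. In control cells 37 of the 46 rose and none fell between OGD and recovery, where 26.9% of all genes tested rose and 29.9% fell (56.8% in all). In knockout cells 38 rose and none fell, against 29.3% and 29.6% of all genes (59% in all). Calls were made where the adjusted p was below 0.05 in edgeR's quasi-likelihood test with Benjamini-Hochberg adjustment over all genes tested, which also holds for every adjusted p that follows. The median log2 change of the 46 was 1.17 in control and 1.37 in knockout cells, and that of all genes was -0.03 and 0.00. Of the called genes, 27 in control and 29 in knockout cells had at least a 2-fold rise. Libraries of the 2 time points did not overlap for 37 genes in control cells (67.1% of all genes) and for 39 in knockout cells (61.2% of all genes). Markers of other cell types moved with recovery too. The summed level of monocyte markers was 126 to 198 CPM in WT-OGD and 689 to 1086 in WT-recovery, and 72.1 to 118 in KO-OGD and 1314 to 1498 in KO-recovery. Of the monocyte markers, all 6 tested were called higher in each genotype, while Ly6c2 stayed at 0 to 6 counts in every library and Plac8 at 0 in WT-recovery. Border macrophage markers had 5 of 7 higher and 1 lower in control cells, and 5 higher and 0 lower in knockout cells. Microglia markers had 8 of 13 higher and 3 lower in control cells, and 7 higher and 4 lower in knockout cells. Astrocyte markers had 3 of 11 higher and 3 lower in control cells, and 4 higher and 0 lower in knockout cells. In control cells neuron markers went from 30.4 to 46.2 CPM after OGD to 103 to 139 after recovery (9 of 11 called higher and 1 lower), oligodendrocyte markers from 157 to 164 to 323 to 367 (10 of 10) and endothelial and mural markers from 10.9 to 13.8 to 66.1 to 82.8 (1 of 6). In knockout cells 9 of 11 neuron, 8 of 10 oligodendrocyte, 3 of 6 endothelial and mural, and 11 of 11 muscle and cartilage markers were called higher. The fall of Xist from WT-OGD to WT-recovery stands beside the rises in control cells as well. Its rise from KO-OGD to KO-recovery stands beside those in knockout cells. The part of other cell types and of cells of female sex in the result was not tested.

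**Figure D2:**
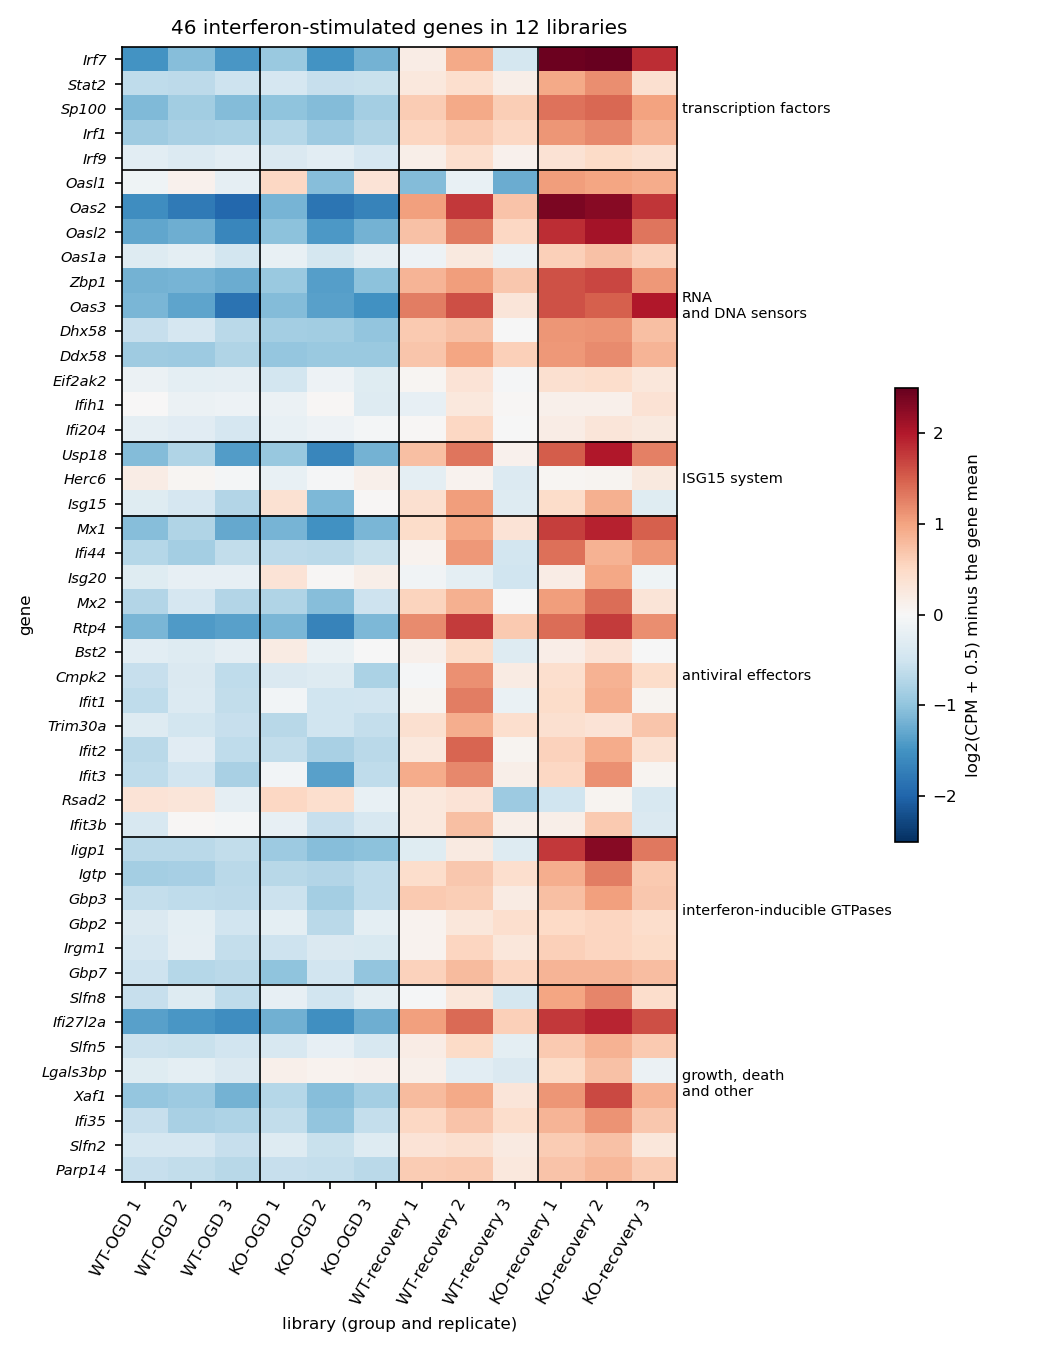
Level of each of the 46 genes (one per line, grouped by role) in each of the 12 libraries, as log2(CPM + 0.5) minus the gene's mean over libraries; red is above and blue below that mean. Most genes are blue in the 6 OGD libraries and red in the 6 recovery libraries, and replicate 2 is the reddest of WT-recovery for 42 genes.

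Sp100, a nuclear body protein, was grouped with the transcription factors of the pathway. All 5 genes of that group rose with recovery in each genotype, where 26.9% (control) and 29.3% (knockout) of all genes rose. Irf1, which opens interferon responses, lay at 24.3, 25.7 and 25.9 CPM in WT-OGD replicates 1 to 3 and at 66.3, 71.4 and 64.9 in WT-recovery. In knockout cells it lay at 27.5, 23.8 and 26.8 CPM after OGD and at 97.7, 104 and 83.3 after recovery. The groups did not overlap at either step, and the log2 changes were 1.42 ± 0.09 (SE, adjusted p = 9.52e-09) in control and 1.87 ± 0.09 (adjusted p = 4.51e-10) in knockout cells. Stat2 and Irf9, members of the promoter-binding complex, rose less. Stat2 stood at 37.5, 37.0 and 41.0 CPM in WT-OGD, 70.3, 78.1 and 64.8 in WT-recovery, 43.7, 39.3 and 39.8 in KO-OGD, and 113, 132 and 77.2 in KO-recovery. Irf9 stood at 19.7, 18.5 and 19.7 CPM in WT-OGD, 26.4, 31.9 and 25.6 in WT-recovery, 18.3, 19.7 and 17.6 in KO-OGD, and 30.7, 33.1 and 31.5 in KO-recovery. For both genes every recovery library lay above every OGD library. The change of Irf9 was 0.54 ± 0.09 in control and 0.78 ± 0.09 in knockout cells on the log2 scale. Sp100, a component of nuclear bodies, rose by 1.80 ± 0.13 and 2.29 ± 0.13.

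The sensors rose in 9 of 11 cases in control (26.9% of all genes) and 10 of 11 in knockout cells (29.3%). The largest changes belonged to oligoadenylate synthetases, enzymes that sense double-stranded RNA and activate RNase L. Oas2 rose from 4.24, 3.60 and 3.08 CPM in WT-OGD to 28.0, 46.6 and 22.3 in WT-recovery, and from 5.75, 3.45 and 3.86 in KO-OGD to 70.7, 67.0 and 47.8 in KO-recovery. Oas3 rose from 2.51, 2.15 and 1.35 CPM to 15.6, 20.0 and 7.69 in control cells, and from 2.63, 2.10 and 1.83 to 19.6, 18.3 and 26.0 in knockout cells. Oasl2 rose from 9.61, 10.2 and 7.59 CPM to 40.9, 60.9 and 34.98, and from 11.8, 8.71 and 10.5 to 88.9, 105 and 62.3. None of these groups overlapped across recovery, and the log2 changes ran from 2.33 ± 0.24 (Oasl2) to 3.17 ± 0.30 (Oas2) in control cells and from 3.04 ± 0.24 (Oasl2) to 3.81 ± 0.30 (Oas2) in knockout cells. The RIG-I-like receptors, which detect viral RNA in the cytoplasm, differed among themselves. Ddx58 (RIG-I) lay at 15.5, 15.2 and 17.0 CPM in WT-OGD and 47.0, 57.8 and 44.1 in WT-recovery, and at 14.6, 15.0 and 15.1 in KO-OGD and 62.4, 67.0 and 52.8 in KO-recovery. Ifih1 (MDA5) lay at 22.0, 19.6 and 19.9 CPM in WT-OGD, 19.0, 26.1 and 22.3 in WT-recovery, 19.6, 22.3 and 17.4 in KO-OGD, and 24.0, 23.9 and 28.1 in KO-recovery. Ddx58 thus separated fully by time point, whereas Ifih1 overlapped in control cells (log2 change 0.14 ± 0.12, adjusted p = 0.333) and changed by 0.36 ± 0.12 in knockout cells (adjusted p = 0.0176). That call for Ifih1 was lost without KO-OGD replicate 3 (0.28, adjusted p = 0.0890) and without KO-recovery replicate 3 (0.27, adjusted p = 0.0846). Zbp1, a sensor of Z-form nucleic acids that can start necroptosis, rose from 5.27, 5.40 and 5.05 CPM to 23.2, 26.5 and 20.5 in control and from 6.39, 4.57 and 5.99 to 38.9, 41.3 and 27.5 in knockout cells. Its groups did not overlap across recovery either.

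The antiviral effectors rose in 10 of 13 cases in control (26.9% of all genes) and 9 of 13 in knockout cells (29.3%). Ifi44, an interferon-induced cytosolic protein, reached 10 counts only in recovery libraries, so it passed the low-count filter through the groups where it was high, although it is counted among the rises. In control cells it had counts of 2, 0 and 4 after OGD and of 4, 23 and 2 after recovery. In knockout cells it had 3, 2 and 4 counts after OGD and 37, 14 and 26 after recovery. Those counts overlapped in control cells before scaling to library size, and after scaling the CPM did not; the fitted log2 changes were 3.78 ± 0.76 and 4.09 ± 0.63, from OGD libraries with almost no reads. Rtp4, a regulator of the response, rose from 3.78, 3.04 and 3.22 CPM to 20.9, 31.4 and 14.4 in control cells and from 3.79, 2.46 and 3.83 to 24.3, 31.2 and 20.8 in knockout cells. Rtp4 thus reached a similar range in both genotypes, with log2 changes of 2.74 ± 0.27 and 2.90 ± 0.27. Rsad2 (viperin) and Isg20, an exonuclease, passed the test in neither genotype, and Rsad2 had log2 values of -0.17 ± 0.31 and -0.61 ± 0.31. Bst2 (tetherin), which holds virions at the cell surface, was the gene called in control cells alone (0.40 ± 0.16, adjusted p = 0.0441). Its call was lost under 13 of 24 alternative settings, for instance without WT-recovery replicate 2 (0.18, adjusted p = 0.307), and in knockout cells its change was 0.16 ± 0.16. The difference of Bst2 between the genotypes in that change was -0.24 ± 0.22 (adjusted p = 0.591).

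All 6 interferon-inducible GTPases, which act on vacuoles that hold pathogens, rose with recovery in both genotypes. Of all genes, 26.9% rose in control and 29.3% in knockout cells. Gbp7 and Igtp rose by 1.29 ± 0.13 and 1.36 ± 0.15 in control and by 1.66 ± 0.13 and 1.72 ± 0.14 in knockout cells. The call of Iigp1 in control cells (1.04 ± 0.38, adjusted p = 0.0278) was lost without WT-recovery replicate 2 (0.64, adjusted p = 0.262), without WT-OGD replicate 1 (1.03, adjusted p = 0.0585) and without WT-OGD replicate 2 (1.03, adjusted p = 0.0565). In the ISG15 system 1 of 3 genes rose in each genotype. That gene was Usp18, the protease that removes ISG15 from proteins and also damps IFNAR2. Usp18 rose from 2.05, 2.71 and 1.56 CPM to 8.56, 13.2 and 5.33 in control cells and from 2.30, 1.25 and 1.89 to 14.8, 21.1 and 12.4 in knockout cells. Isg15, the ubiquitin-like modifier, lay at 6.12, 5.61 and 4.41 CPM in WT-OGD, 10.3, 16.4 and 6.06 in WT-recovery, 10.1, 3.25 and 7.88 in KO-OGD, and 10.8, 14.6 and 6.16 in KO-recovery. The ranges of Isg15 overlapped across recovery in both genotypes (log2 1.04 ± 0.48, adjusted p = 0.0877, and 0.53 ± 0.46, adjusted p = 0.347). Among the remaining genes, 6 of 8 rose in control and 7 of 8 in knockout cells. Ifi27l2a, a small membrane protein, was the most changed of them. It rose from 6.37, 5.93 and 5.53 CPM to 35.3, 46.6 and 26.0 in control cells and from 7.20, 5.55 and 7.11 to 59.8, 65.2 and 53.7 in knockout cells (log2 2.60 ± 0.18 and 3.16 ± 0.18), without overlap.

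Of the 46 genes, 36 rose in both genotypes, Bst2 in control cells alone, Ifih1 and Slfn8 in knockout cells alone, and 7 in neither (Isg15, Oasl1, Herc6, Isg20, Lgals3bp, Rsad2 and Ifit3b). The fitted change was larger in knockout cells for 39 of the 46. These 2 comparisons use different libraries, and over the 46 genes their log2 changes correlated with Pearson's r of 0.826, which is a description across genes that share libraries and depth. The mean level was highest in KO-recovery for 39 genes, in WT-recovery for 6 and in KO-OGD for 1, and lowest in WT-OGD for 25 and in KO-OGD for 17. Per kilobase of exon, Lgals3bp, a secreted glycoprotein, was the most abundant, with a mean of 157 RPKM, the CPM divided by exon length in kilobases, in WT-OGD and 257 in KO-recovery, followed by Slfn2, a regulator of quiescence in immune cells, with 106 and 217. Ifi27l2a had a mean RPKM of 12.8 in WT-OGD and 129 in KO-recovery, and Ifi44 had 0.00718 and 0.238.

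**Figure D3:**
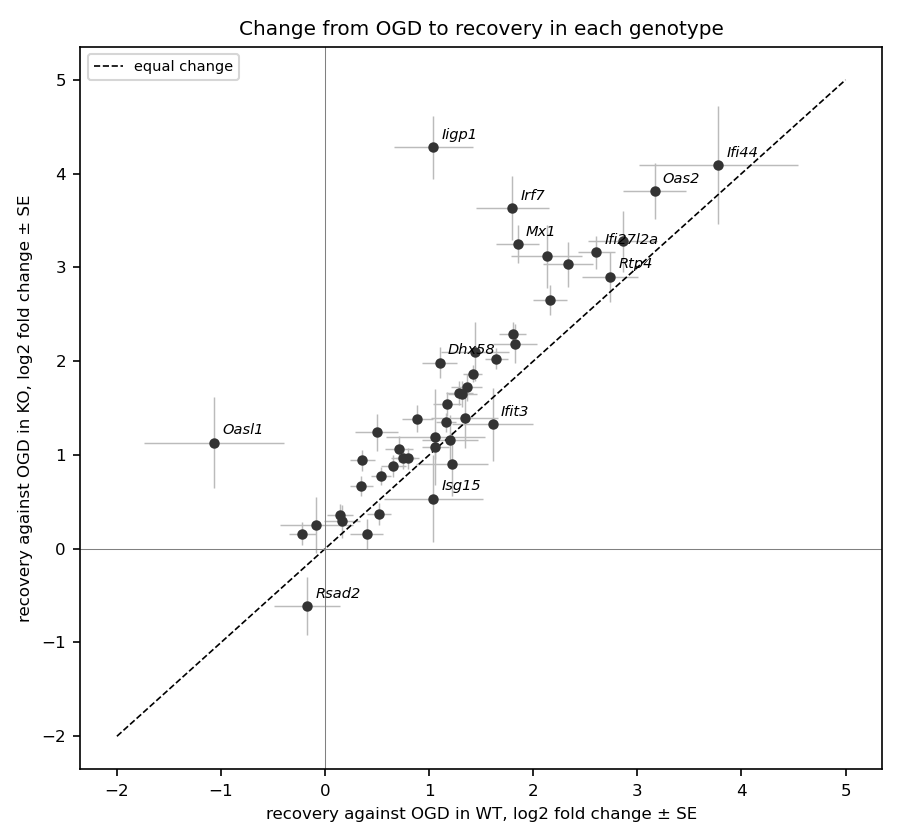
Log2 fold change from OGD to recovery of each of the 46 genes in control cells (horizontal axis) and in knockout cells (vertical axis), with standard errors as bars; the dashed line marks equal change. 39 genes lie above the line, and Iigp1, Irf7, Mx1 and Oasl1 lie farthest above it.

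Straight after OGD, no gene of the 46 passed the test between the genotypes. None was called higher and none lower in knockout cells, against 0.966% and 6.52% of all genes tested (7.49% in either direction), and DESeq2 also called none. The lowest unadjusted p of the 46 in the edgeR test were those of Lgals3bp, Dhx58 and Iigp1 (0.0308 to 0.0444). The median log2 difference of the 46 was 0.06, and that of all genes was -0.01. It ranged from -0.01 to 0.14 when single libraries were left out and was 0.56 with the astrocyte-marker covariate. The 2 genotypes' libraries did not overlap for 8 genes, where 30.4% of all genes did not overlap. Cell-type markers differed between these groups. All 11 astrocyte markers tested were called lower in knockout cells (142 to 206 CPM summed in WT-OGD against 56.6 to 81.5 in KO-OGD). Also lower were 4 of 11 neuron and 4 of 13 microglia markers, with none higher. Oligodendrocyte and monocyte markers each had 1 higher and 2 lower. The Xist and Ddx3y differences stand beside this comparison too. The part of cell types and sex in it was not tested. Lgals3bp lay at 447, 466 and 429 CPM in WT-OGD and at 607, 591 and 599 in KO-OGD, so all knockout libraries were above all controls (log2 0.42 ± 0.17, adjusted p = 0.208). Dhx58 (LGP2), which tunes the other RIG-I-like receptors, lay at 7.78, 8.68 and 7.23 CPM in WT-OGD and at 6.32, 6.28 and 5.72 in KO-OGD (log2 -0.37 ± 0.17, adjusted p = 0.259). Iigp1, at 0.415, 0.413 and 0.457 against 0.284, 0.197 and 0.219 CPM, likewise lay lower in every knockout library (log2 -0.85 ± 0.39, adjusted p = 0.259). The 95% intervals of most differences were wide enough to hold a moderate change, for instance -0.60 to 0.96 for Irf7 and -0.61 to 1.43 for Isg15, and narrow for Irf1 (-0.15 to 0.23) and Parp14 (-0.20 to 0.22). KO-recovery replicate 3 is in neither group compared but enters the shared spread and the low-count filter. Without it (19837 genes then tested), 1 of the 46 was called higher, against 1.65% of all genes.

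After recovery, 17 of the 46 genes were higher in knockout cells and none was lower. Of all genes tested, 10.1% were higher and 12% lower (22.2% in all). The median log2 difference of the 46 was 0.39, and that of all genes was 0.01. It was 0.25 without KO-recovery replicate 2, 0.26 without WT-recovery replicate 3 and 0.84 with the summed astrocyte markers as a covariate. The fitted difference was above 0 for 39 of the 46 and for 50.8% of all genes. Libraries of the genotypes did not overlap for 16 genes, where 33.5% of all genes did not overlap. The called genes with at least a 2-fold difference were Oasl1, Iigp1, Irf7 and Mx1. Markers of other cell types differed between these groups as well. Summed monocyte markers were 689 to 1086 CPM in WT-recovery and 1314 to 1498 in KO-recovery, with 2 of 6 tested called higher and a median log2 difference of -0.02 over the 6. Border macrophage markers were 839 to 1179 and 1240 to 1374 CPM, with 3 of 7 called higher. Summed endothelial and mural markers (66.1 to 82.8 against 123 to 135 CPM) were also higher in every knockout library, with 2 of 6 called higher. The plasmacytoid dendritic cell list summed to 155 to 188 against 203 to 243 CPM. Of its 5 genes tested, 1 was called higher and 1 lower, with a median log2 difference of -0.09. The 1 called higher was Irf8, also a factor of microglia and monocytes. Astrocyte markers were lower in knockout libraries (283 to 314 against 87.5 to 148 CPM, 8 of 11 called lower). So were neuron markers (103 to 139 against 39.0 to 51.1 CPM, 4 of 11) and oligodendrocyte markers (323 to 367 against 259 to 315 CPM, 4 of 10), with 0 called higher in these lists. Of 11 muscle and cartilage markers tested, 7 were called higher and 0 lower, with a median log2 difference of 3.71. The part of all these cells in the result was not tested. Without KO-recovery replicates 1 and 3, which hold the muscle and cartilage transcripts, the median log2 difference of the 46 was 0.55. That group was then replicate 2 alone, the library highest in its group for 38 of the 46, and it was assumed to vary like the other groups. Without WT-recovery replicate 1, with its high mitochondrial share, 14 were called, where 9.16% of all genes were higher. Without WT-recovery replicate 3 only 9 were called (6.65% of all genes), which was the lowest count of any alternative. Called in each of 24 alternative settings were Iigp1, Irf1, Irf7, Mx1, Slfn8 and Sp100.

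**Figure D4:**
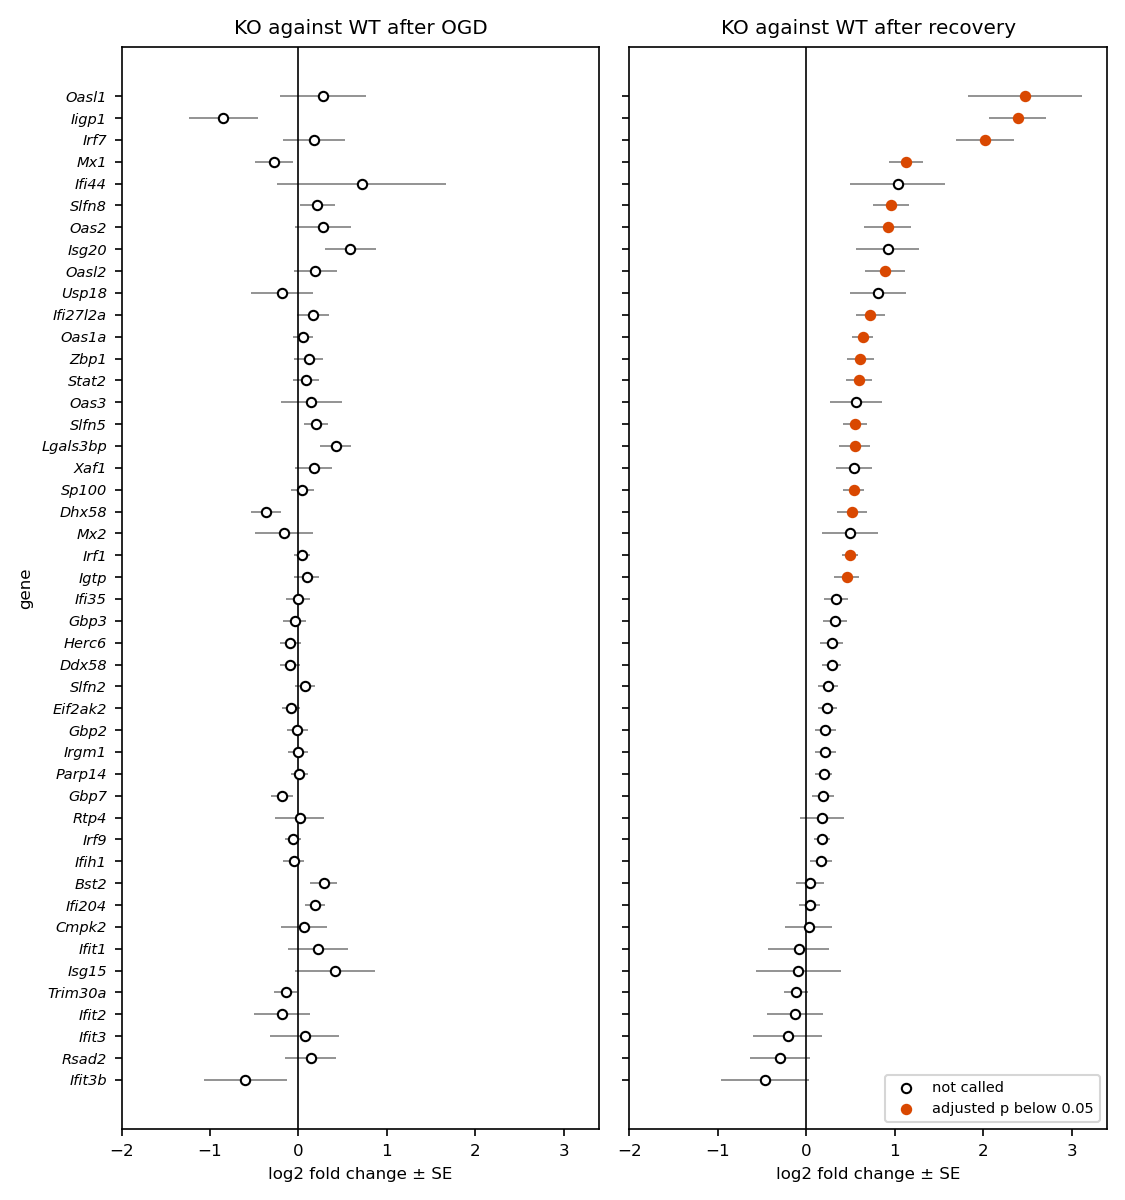
Log2 difference of knockout against control cells (points, with standard errors as bars) for each of the 46 genes straight after OGD (left) and after recovery (right), in the order of the right panel. Filled orange points passed an adjusted p of 0.05; 0 did so after OGD and 17 after recovery.

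Of the 5 genes in the transcription factor group, with Sp100 included, 4 were among the 17 (10.1% of all genes were higher). Irf7 (chromosome 7, 141262706 to 141266481, GRCm38) lay at 4.07, 5.61 and 4.18 CPM in WT-OGD, 14.0, 24.1 and 9.02 in WT-recovery, 6.23, 4.07 and 5.20 in KO-OGD, and 70.1, 78.5 and 45.9 in KO-recovery. After OGD the genotypes overlapped, and after recovery the lowest knockout library was well above the highest control library. The difference after recovery was 4.05-fold (log2 2.02 ± 0.33, adjusted p = 0.00190). In KO-recovery the mean of Irf7 was 64.8 ± 16.9 CPM (SD, n = 3), and in WT-recovery 15.7 ± 7.68. Irf7 shares 45 exonic bases with Phrf1 on the other strand. Irf1, at the levels given above, was higher in every knockout library after recovery (log2 0.49 ± 0.09, adjusted p = 0.00140). Sp100 lay at 45.3, 56.0 and 44.8 CPM in WT-recovery against 75.4, 79.1 and 58.2 in KO-recovery (log2 0.53 ± 0.12, adjusted p = 0.00601), without overlap. Stat2 overlapped, since KO-recovery replicate 3 lay below WT-recovery replicate 2 (log2 0.59 ± 0.15, adjusted p = 0.0107), and its call was lost without WT-recovery replicate 3 (0.52, adjusted p = 0.0536). Irf9 was not called (log2 0.18 ± 0.10, adjusted p = 0.198).

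**Figure D5:**
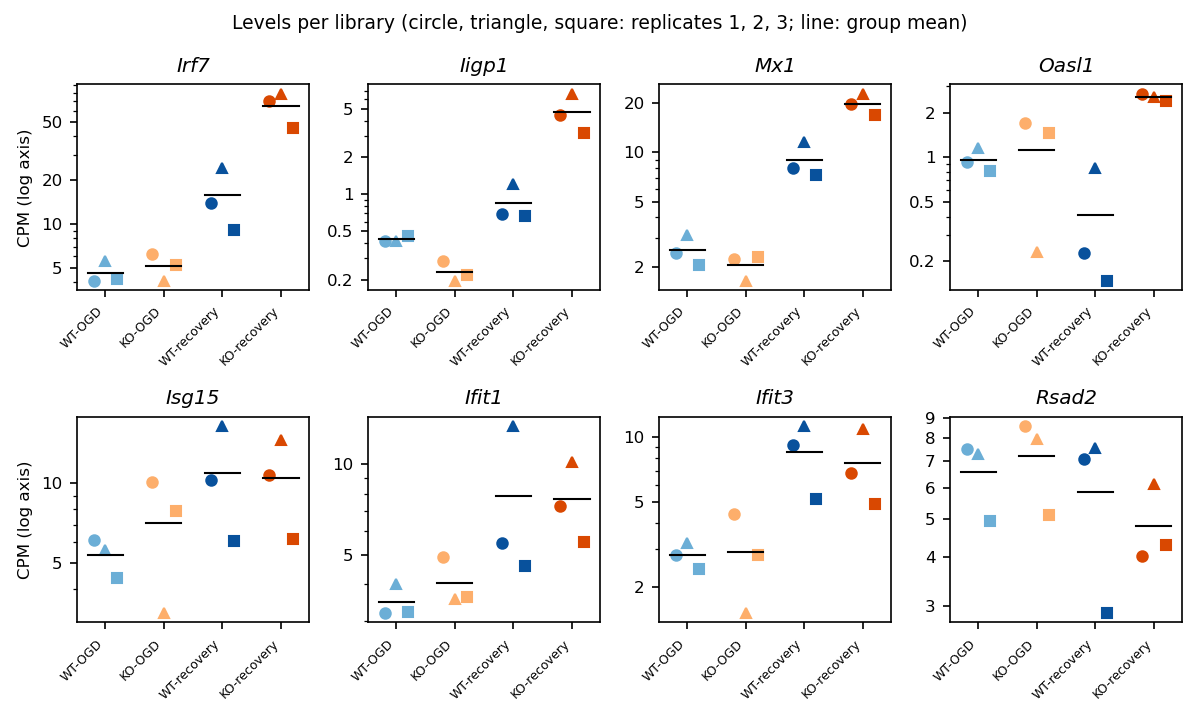
CPM on a log axis of 8 genes in every library: circles, triangles and squares are replicates 1, 2 and 3, and lines are means of 3. In the upper panels (Irf7, Iigp1, Mx1, Oasl1) KO-recovery lies above every other library, and in the lower panels (Isg15, Ifit1, Ifit3, Rsad2) both recovery groups cover overlapping ranges.

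Of the 11 sensors, 6 were among the 17 (10.1% of all genes were higher), namely Oasl1, Oas2, Oasl2, Oas1a, Zbp1 and Dhx58. Oasl1 (chromosome 5, 114923240 to 114937915), which in mice represses translation of Irf7, was a low transcript with 38, 39 and 39 counts in WT-OGD, 2, 14 and 2 in WT-recovery, 72, 7 and 53 in KO-OGD, and 54, 31 and 45 in KO-recovery. Scaled, WT-recovery lay at 0.228, 0.855 and 0.148 CPM and KO-recovery at 2.68, 2.53 and 2.41. The knockout libraries were close together and above all controls, while KO-OGD replicate 2 stood far below its group. The log2 difference of Oasl1 after recovery was 2.47 ± 0.64 (5.55-fold, adjusted p = 0.0142). It was 2.04 (adjusted p = 0.0627) without WT-recovery replicate 3. Oas2 and Oasl2, with no overlap at the levels given above, differed by 0.92 ± 0.27 (adjusted p = 0.0302) and 0.89 ± 0.22 (adjusted p = 0.0148). The call of Oas2 was lost without any one of WT-recovery replicate 1, WT-recovery replicate 3, KO-recovery replicate 1 or KO-recovery replicate 2, with log2 differences of 0.70 to 0.86 and adjusted p of 0.0861 to 0.0948. That of Oasl2 was lost without WT-recovery replicate 1, WT-recovery replicate 3 or KO-recovery replicate 2, with log2 differences of 0.72 to 0.81 and adjusted p of 0.0527 to 0.0587. Oas1a lay at 18.8, 24.6 and 18.7 CPM in WT-recovery against 31.6, 34.7 and 31.2 in KO-recovery (log2 0.64 ± 0.12, adjusted p = 0.00144), and the call was lost with the astrocyte-marker covariate (0.79, adjusted p = 0.0555). Of its 50-base stretches, 57.6% also occur in Oas1g, so its reads may be split between them, and Oas1g was also higher (log2 0.69 ± 0.18, adjusted p = 0.0124). With the astrocyte-marker covariate Oasl1 (3.17, adjusted p = 0.135), Oas2 (1.40, adjusted p = 0.244), Oasl2 (1.60, adjusted p = 0.0764) and Dhx58 (0.87, adjusted p = 0.135) were not called either. Zbp1 differed by 0.61 ± 0.15 (adjusted p = 0.00991), and by 0.52 (adjusted p = 0.0550) without WT-recovery replicate 3. Dhx58 lay at 19.0, 20.1 and 11.8 CPM in WT-recovery against 26.1, 26.4 and 20.2 in KO-recovery, separated by a narrow gap (log2 0.52 ± 0.17, adjusted p = 0.0376). Its call was lost without WT-recovery replicate 3 (0.30, adjusted p = 0.154), KO-recovery replicate 1 (0.45, adjusted p = 0.126) or KO-recovery replicate 2 (0.45, adjusted p = 0.107). Dhx58 overlaps 141 bases of the antisense gene Dhx58os, and the strand setting of the counting was not given. Not called were Ddx58 (0.29 ± 0.11, adjusted p = 0.0710), Ifih1 (0.16 ± 0.12), Oas3 (0.56 ± 0.30), Ifi204, a DNA sensor (0.04 ± 0.12), and Eif2ak2, the kinase PKR (0.24 ± 0.11).

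Of the 13 antiviral effectors only Mx1 was called after recovery, a share near the 10.1% of all genes called higher. Mx1 (chromosome 16, 97447035 to 97462907), a dynamin-like GTPase that blocks influenza virus in mice with an intact allele, lay at 2.42, 3.13 and 2.04 CPM in WT-OGD, 7.99, 11.5 and 7.32 in WT-recovery, 2.23, 1.64 and 2.30 in KO-OGD, and 19.7, 22.8 and 16.8 in KO-recovery. Controls and knockouts overlapped after OGD and separated after recovery (2.18-fold, log2 1.12 ± 0.19, adjusted p = 0.000857). The median log2 difference of the 13 effectors was 0.03. Members of the IFIT family, which binds viral RNA ends, overlapped between the genotypes and were not called. Ifit1 lay at 5.48, 13.4 and 4.59 CPM in WT-recovery against 7.29, 10.2 and 5.51 in KO-recovery (log2 -0.09 ± 0.35, 95% interval -0.84 to 0.67). Ifit2 lay at 13.9, 32.7 and 12.2 CPM against 17.5, 22.3 and 15.2 (log2 -0.13 ± 0.32, interval -0.83 to 0.57). Ifit3 lay at 9.25, 11.3 and 5.18 CPM against 6.84, 10.9 and 4.87 (log2 -0.21 ± 0.39, interval -1.06 to 0.63). In each of the 3 genes replicate 2 was the highest library of both genotypes. Ifit3 shares 51.2% of its 50-base stretches with Ifit3b, which had 5 to 19 counts in each recovery library (log2 -0.47 ± 0.50), so reads of this pair may be split. Rsad2 (-0.30 ± 0.34), Cmpk2, a mitochondrial nucleotide kinase encoded next to it (0.03 ± 0.27), Trim30a (-0.12 ± 0.13), Bst2 (0.04 ± 0.16) and Rtp4 (0.18 ± 0.24) were not called either. Mx2 (0.49 ± 0.32), Isg20 (0.92 ± 0.36, adjusted p = 0.0770) and Ifi44 (1.03 ± 0.53, adjusted p = 0.181) had higher fitted values with wide errors.

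Among the GTPases Iigp1 and Igtp were called of 6, where 10.1% of all genes were higher. Iigp1 (ENSMUSG00000054072.12), an immunity-related GTPase, was sparse, with 17, 14 and 22 counts in WT-OGD, 6, 20 and 9 in WT-recovery, 12, 6 and 8 in KO-OGD, and 90, 81 and 59 in KO-recovery. Scaled, it lay at 0.685, 1.22 and 0.666 CPM in WT-recovery against 4.46, 6.61 and 3.16 in KO-recovery. Every KO-recovery library was above every other library of the study, and the difference after recovery was 5.24-fold (log2 2.39 ± 0.32, adjusted p = 0.000147). Igtp overlapped narrowly, at 14.8, 17.6 and 14.6 against 20.7, 27.1 and 17.4 CPM (log2 0.46 ± 0.14, adjusted p = 0.0321). Leaving out WT-recovery replicate 1 or 3, or KO-recovery replicate 1 or 2, ended the call of Igtp (0.27 to 0.49, adjusted p 0.0602 to 0.159). Gbp2, Gbp3, Gbp7 and Irgm1 had log2 differences of 0.19 to 0.32 and were not called, although Gbp2 and Gbp3 did not overlap. None of the 3 genes of the ISG15 system was called: Isg15 (-0.09 ± 0.48, 95% interval -1.17 to 0.98), its mouse ligase Herc6 (0.29 ± 0.13, adjusted p = 0.131) and Usp18 (0.81 ± 0.31, adjusted p = 0.0828). Usp18 passed without WT-recovery replicate 2 (1.22, adjusted p = 0.0212).

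Of the other 8 genes, Slfn8, Ifi27l2a, Slfn5 and Lgals3bp were higher in knockout cells, as were 10.1% of all genes. Slfn8, of the Schlafen family of growth and RNA regulators, lay at 12.3, 14.7 and 11.7 CPM in WT-OGD, 18.0, 22.6 and 13.5 in WT-recovery, 16.0, 13.1 and 15.6 in KO-OGD, and 36.9, 44.0 and 25.3 in KO-recovery. It separated by genotype after recovery and not after OGD (log2 0.96 ± 0.21, adjusted p = 0.00530). Slfn8 shares 14.6% of its 50-base stretches with other genes. Ifi27l2a, without overlap, differed by 0.72 ± 0.16 (adjusted p = 0.00620) and Slfn5 by 0.55 ± 0.14 (adjusted p = 0.00989). With the astrocyte-marker covariate the calls of Ifi27l2a (1.12, adjusted p = 0.0763) and Slfn5 (0.73, adjusted p = 0.151) were lost. Slfn5 overlaps 559 exonic bases of its antisense gene Slfn5os. Lgals3bp lay at 608, 463 and 432 CPM in WT-recovery against 775, 921 and 502 in KO-recovery, so KO-recovery replicate 3 was below WT-recovery replicate 1 (log2 0.55 ± 0.18, adjusted p = 0.0380). The call of Lgals3bp was lost without KO-OGD replicate 1 or 3, without WT-recovery replicate 2 or 3, and without KO-recovery replicate 1 or 2, at adjusted p of 0.0524 to 0.160. Xaf1, a promoter of apoptosis (0.54 ± 0.20, adjusted p = 0.0711), Ifi35 (0.33 ± 0.13), Slfn2 (0.24 ± 0.11) and the ADP-ribosyltransferase Parp14 (0.20 ± 0.10) were not called. By role, the median log2 difference was 0.53 for the transcription factor group, which is the value of Sp100. It was 0.56 for sensors, 0.54 for these 8 genes, 0.27 for GTPases and 0.03 for effectors. Differences between roles were not tested.

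The interaction asks whether the genotype difference after recovery differs from that after OGD. This is the same as asking whether a gene changed differently from OGD to recovery in knockout and control cells. It was called, in the direction of a larger rise in knockout cells, for 3 of the 46 genes (2.89% of all genes tested) and in the other direction for none (2.36%, or 5.25% in all). Iigp1 rose by 4.28 ± 0.34 in knockout and 1.04 ± 0.38 in control cells, a difference of 3.24 ± 0.51 (adjusted p = 0.00227). Mx1 rose by 3.25 ± 0.21 and 1.85 ± 0.21, a difference of 1.40 ± 0.29 (adjusted p = 0.0119). Dhx58 rose by 1.98 ± 0.17 and 1.10 ± 0.17, a difference of 0.88 ± 0.24 (adjusted p = 0.0435). For Iigp1 and Dhx58 the knockout libraries lay below all controls after OGD and above all controls after recovery. Irf7 rose by 3.63 ± 0.34 in knockout and 1.80 ± 0.35 in control cells, and its difference of 1.84 ± 0.48 did not pass (adjusted p = 0.0572). Without WT-recovery replicate 2 it passed at 2.33 (adjusted p = 0.00898) and without KO-recovery replicate 3 at 2.02 (adjusted p = 0.0340). Oas1a (0.58 ± 0.16, adjusted p = 0.0512), Irf1 (0.45 ± 0.13, adjusted p = 0.0556) and Oasl1 (2.20 ± 0.82, adjusted p = 0.144) did not pass. For Isg15, Ifit1, Ifit3 and Rsad2 the fitted interaction was negative, from -0.51 to -0.28, with errors of 0.44 to 0.66. The median interaction of the 46 was 0.36 where that of all genes was 0.03. That median was 0.23 without WT-recovery replicate 3. The count of 3 called genes became 6 without WT-recovery replicate 2 (1.55% of all genes) and 10 without KO-recovery replicate 3 (4.52%). The call of Dhx58 held when WT-recovery replicate 1, WT-recovery replicate 2 or KO-recovery replicate 3 was left out, and was lost when any other single library was, with adjusted p of 0.0625 to 0.111. The monocyte, border macrophage and sex-linked differences between WT-recovery and KO-recovery given above stand beside these results too.

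The 46 genes also moved together between replicates of a group. In WT-recovery, replicate 2 was the highest library for 42 of the 46 genes, where it was highest for 32.0% of all genes, and replicate 3 was the lowest for 41 (31.5% of all genes). In KO-recovery, replicate 2 was the highest for 38 (35.9% of all genes) and replicate 3 the lowest for 37 (36.0%). The median log2 difference of replicate 2 over replicate 3 across the 46 was 0.58 in WT-recovery and 0.43 in KO-recovery, against 0.01 and -0.01 over all genes. The shift included genes that were not called between genotypes, such as Ifit2, with 32.7 CPM in WT-recovery replicate 2 and 12.2 in replicate 3. After OGD such shifts were smaller: KO-OGD replicate 2 was lowest for 31 of the 46 (41.6% of all genes), and WT-OGD replicate 3 for 26 (31.5%). Over all genes, same-numbered libraries of different groups had correlations of only -0.23 to 0.156 in their deviations from the group means. Whether the numbers mark a shared batch cannot be told from this. Summed over the 46, the level was 1212 ± 44.4 CPM (SD, n = 3) in WT-OGD, 1395 ± 45.5 in KO-OGD, 2026 ± 269 in WT-recovery and 2740 ± 472 in KO-recovery. After OGD, Lgals3bp alone went from a mean of 447 to 599 CPM without passing the test, so most of the gap between the OGD sums was that gene. The lowest KO-recovery library, at 2235 CPM, lay just below the highest WT-recovery library, at 2263.

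The rest of the pathway was described from lists of its ligands, receptors and other targets. Transcripts of interferons themselves were almost undetected. Of 20 ligand genes 13 had no read in any library and none passed the filter. Reads of Ifnb1 numbered 0, 2 and 0 in WT-OGD, 0, 1 and 0 in WT-recovery, 4, 0 and 0 in KO-OGD, and 0 in KO-recovery. All ligands together had 1 to 9 counts in each OGD library and 0 or 1 in each recovery library, so a genotype difference in ligand transcripts was not detectable at this depth. Counts of called genes in these lists are to be read against 10.1% of all genes higher and 12% lower in knockout cells after recovery. Of 5 receptor genes tested, Ifnar1 and Ifngr1 were higher in knockout cells after recovery and none was lower. Ifnar1 had means of 74.3 ± 1.82 and 102 ± 4.71 CPM (log2 0.46 ± 0.09, adjusted p = 0.00182), and Ifngr1 differed by 0.35 ± 0.11 (adjusted p = 0.0378). Ifnar2, the other IFNAR chain, was not called (0.29 ± 0.11, adjusted p = 0.0786).

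Of 7 genes of receptor signalling, where 10.1% of all genes were higher, Tyk2, Irf2 and Irf8 were higher in knockout cells after recovery and none was lower. Irf8, a lineage factor of microglia and monocytes, had means of 90.0 ± 0.78 CPM in WT-OGD, 93.5 ± 10.3 in WT-recovery, 88.1 ± 1.76 in KO-OGD, and 158 ± 17.5 in KO-recovery (log2 0.76 ± 0.09, adjusted p = 6.47e-05). Jak1 fell with recovery by 0.66 ± 0.09 and 0.62 ± 0.09 on the log2 scale. Of 15 genes that sense nucleic acids or relay that signal towards interferon, 3 (Tmem173, which encodes STING, Tlr7 and Aim2) were higher in knockout cells after recovery and none was lower. Tmem173 rose with recovery by 1.51 ± 0.10 in control and 1.90 ± 0.10 in knockout cells, and differed by 0.42 ± 0.10 after it (adjusted p = 0.00788). Of 11 inhibitors of the pathway, Socs3, Ptpn6 and Adar were higher and none was lower. Socs3, which blocks JAK kinases, differed by 0.51 ± 0.09 (adjusted p = 0.000947). Straight after OGD the inhibitor Cish was the 1 gene called of these 11 (0.32 ± 0.09, adjusted p = 0.0368), where 7.49% of all genes were called. Trex1, the nuclease that clears cytosolic DNA, rose in both genotypes, by 2.05 ± 0.16 and 2.16 ± 0.16, with a genotype difference of 0.13 ± 0.16 after recovery.

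Targets that respond chiefly to interferon gamma were mixed, with 3 of 12 tested higher and 1 lower in knockout cells after recovery. Gbp6 had means of 3.99 ± 1.40 and 8.27 ± 0.44 CPM (log2 1.01 ± 0.19, adjusted p = 0.00176), and Nlrc5, which drives MHC class I genes, differed by 0.73 ± 0.11 (adjusted p = 0.000392). Ciita, the master regulator of MHC class II genes, had 16, 52 and 45 counts in WT-recovery against 16, 10 and 15 in KO-recovery and was lower (log2 -1.82 ± 0.33, adjusted p = 0.00127). Cxcl10, a chemokine, had 28, 92 and 42 counts in WT-recovery against 12, 18 and 14 in KO-recovery and was not called (log2 -2.20 ± 0.82, adjusted p = 0.0848). A further list of 45 interferon-stimulated genes outside the 46 had 25 higher and 0 lower, with a median of 0.40. Its largest called differences were those of Ms4a4c (1.97 ± 0.40), Ifi205 (1.34 ± 0.36) and Ifi213 (1.18 ± 0.37). Straight after OGD, where 7.49% of all genes were called, 1 gene of that list was. That gene was Ifi213, of the family of DNA-binding IFI200 proteins, and it was lower in knockout cells (-1.90 ± 0.50, adjusted p = 0.0309). Its counts were 31, 32 and 33 in WT-OGD, 11, 69 and 24 in WT-recovery, 11, 1 and 11 in KO-OGD, and 122, 74 and 97 in KO-recovery, and its interaction was 3.07 ± 0.62 (adjusted p = 0.0112). With recovery, 39 of the 45 rose and 1 fell in control cells, where 26.9% of all genes rose and 29.9% fell. In knockout cells 43 rose and 0 fell, where 29.3% of all genes rose and 29.6% fell.

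Promoter content was set beside the calls after recovery. The ISRE core was present in 5 of the 11 genes with a promoter that were higher in knockout cells (45.5%) and in 15 of the 24 that were not called (62.5%). Isg15 and Ifit3, whose windows printed above hold several core matches, covered overlapping ranges in the genotypes, and Irf7, with none in its window, did not. A match of letters is a description of these windows and no measure of binding. No promoter was matched for Dhx58, Zbp1, Ifi204, Oas2, Usp18, Mx1, Mx2, Rtp4, Iigp1, Ifi27l2a or Parp14.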

How the data were processed

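One deposited table held unnormalized counts of reads for each gene in 12 libraries. HISAT2, featureCounts and build GRCm38 are named in the submitters' processing notes. The sources used here give no versions, no strand setting and no handling of multiply mapping reads. Identifiers were matched to GENCODE symbols with versions ignored. Genes with low counts were removed by edgeR's expression filter, counts were scaled by TMM factors, and all 12 libraries entered 1 quasi-likelihood fit over 4 groups (edgeR 4.0.16, R 4.3.3). The 5 contrasts were each adjusted by Benjamini-Hochberg over 18842 genes and called at 0.05. CPM and RPKM used the same factors. The common biological coefficient of variation was 0.119. Totals of 9885259 to 45347118 counts limit precision most for Ifi44, Iigp1, Ifit3b and Oasl1. The script was tested on simulated counts. Replicates differed by more than sampling noise. Values per library are given for Irf1, Irf7, Irf9, Stat2, Usp18, Ifih1, Ddx58, Dhx58 and Zbp1, and for up to 6 called genes per contrast with the largest change and no overlap; other genes are named as examples. Genes and lists were chosen with earlier results of these data known. Alternatives were DESeq2 1.42.0, other scaling and filters, a replicate block, thinning, covariates and leaving out libraries. Of the 46 genes, 16 share exonic bases with another gene.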

Additional observations from a re-analysis of the deposited data

Results flagged for a closer look

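The signed difference of knockout from control cells was higher after recovery than after OGD, by the interaction test, for 3 genes (2.89% of all genes). It was higher by 3.24 for Iigp1, by 1.40 for Mx1 and by 0.88 for Dhx58 on the log2 scale. The fitted differences changed sign, from -0.85 to 2.39 for Iigp1, -0.27 to 1.12 for Mx1 and -0.37 to 0.52 for Dhx58. None of the 3 was called after OGD. The call of Mx1 held in each of 23 alternative settings, that of Iigp1 in 22 and that of Dhx58 in 10. Relative log expression factors, thinned libraries and leaving out mitochondrial genes each ended the call of Dhx58. Single libraries were not screened for standing apart from their group.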

How the results depend on the processing

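After recovery, the count of genes higher in knockout cells was 17, with 10.1% of all genes tested higher. It was 9 to 22 (5.53% to 12.7% of all genes) when single libraries were left out. The count was 17 (10.7%) with relative log expression factors, 19 (11.4%) with DESeq2 and 22 (6.87%) without a filter. It was 17 (10.6%) with thinned libraries, 13 (4.38%) with the astrocyte-marker covariate and 12 (7%) in a fit of only the libraries compared. Straight after OGD no gene was higher or lower, where 0.966% of all genes were higher. There were 2 higher (1.45% of all genes) without a filter and 1 (3.01%) in a fit of only the libraries compared. When single libraries were left out there was 0 or 1 (0.379% to 1.65%). The interaction count of 3 (2.89% of all genes) became 6 (3.85%) with DESeq2 and 13 (3.02%) without a filter. It was 1 (1.79%) with thinned libraries and 5 (3.67%) with the covariate. When single libraries were left out it was 2 to 10 (1.34% to 4.52%). Without KO-recovery replicates 1 and 3, the median interaction of the interferon-stimulated genes was 0.51, and that of all genes was -0.01. KO-recovery was then again 1 library, its group's highest for 38 genes. The interaction of Iigp1 was 2.60 (adjusted p = 0.160) with thinned libraries. Genes that fell with recovery numbered 0; without a filter there was 1 in each genotype, and leaving out single libraries gave 0 to 2 in control and 0 or 1 in knockout cells. Rises numbered 32 to 39 in control (22.6% to 28.3% of all genes) and 36 to 40 in knockout cells (24.8% to 29.8%) when single libraries were left out. The genotype difference of Ifih1 after recovery turned to -0.31 (adjusted p = 0.443) with the covariate. The stricter motif reduced the 20 genes with an ISRE core to 12. The cause of these changes was not tested.

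Same-numbered libraries of different groups had correlations of -0.23 to 0.156 in their deviations, so they shared only a number. With the replicate block, 19 genes were higher in knockout cells after recovery (8.49% of all genes) and the interaction count was 4 (2%). In knockout cells 1 gene then fell with recovery.

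The choice to leave out replicate 2 of both recovery groups was made after seeing the data. This gave 16 genes higher in knockout cells after recovery (5.01% of all genes) and an interaction count of 5 (1.91%). In control cells 1 gene then fell. Leaving out replicate 3 of both, also chosen after seeing the data, gave 17 (9.66%) and 7 (3.32%). Straight after OGD 1 gene was then higher (1.56%) and 1 lower.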
